A study of Rattus norvegicus with 6 samples.

Results

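Oxidative phosphorylation subunits are the protein parts of the machinery with which mitochondria turn fuel into ATP. The set described here holds 51 nuclear genes: 22 named for complex I, 4 of complex II, 6 of complex III, cytochrome c, 9 of complex IV and 9 of complex V. A member was measured by every probe of the array other than control spots whose transcript accession belongs to that gene. Of the 51, 47 had a probe, with 78 probes in all, among 61537 probes other than controls. The other 4 (Ndufa8, Ndufs6, Cyc1 and Atp5mc3) had no probe under an accession of the gene table used and are not analysed here. The members were chosen by function, with earlier results of these data known.

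RNA of the renal cortex was measured on 6 one-colour Agilent arrays, 1 for each male Sprague-Dawley rat (Crl:CD(SD) stock, 5 weeks old at purchase, no stated genetic change). The 3 control rats received corn oil, the vehicle, for 4 weeks. Chlorothalonil, a fungicide with a chlorinated benzene ring, was given to the 3 treated rats over the same 4 weeks at a daily 500 mg/kg, and how the compound was given is not stated in the labels used here. Chlorothalonil replicate 3 carries the source name ethylenediamine dihydrochloride although its title and its treatment label give chlorothalonil, so the counts that lead are also given without it.

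Complex I oxidises NADH and complex II oxidises succinate. Both pass electrons through ubiquinone to complex III, from there through the small carrier cytochrome c to complex IV, which reduces oxygen, and complex V uses the proton gradient built on the way to make ATP. Proximal tubule cells, which fill most of the renal cortex, depend on this pathway for the energy of solute reabsorption. A few core subunits are encoded by mitochondrial DNA. All members here are encoded in the nucleus, where the transcription factors NRF1, GABPA (an ETS factor) and YY1 are known to act on many of their promoters.

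Promoters were one feature that the choice of members had not used. RefSeq promoter windows of 250 bases before to 50 after the start of the gene (build GRCr8) were at hand for 44 of the 51 members. On either strand, 13 of the 44 (29.5%) held the ETS motif CCGGAAG, against 8.745% of 33469 promoters of all kinds and 10.74% of 21851 promoters of protein-coding genes. The YY1 motif AAGATGGC was found in 10 (22.7%), against 3.17% and 3.67%. The NRF1 motif, a palindrome of GC steps searched with its sixth base left free, was found in 7 (15.9%), against 4.25% and 5.67%. At least 1 of the ETS, YY1 and NRF1 motifs stood in 25 of the 44 (56.8%), against 17.9% of the promoters of protein-coding genes. This is not particular to the members: 16 of 32 promoters of other nuclear subunits and tissue isoforms (50%) held at least 1, and 21.9% held the NRF1 motif. By comparison, the core of the antioxidant response element, TGACNNNGC, was found in 7 (15.9%) against 12.5%. These are matches of letters, not measured binding.

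The 120 bases before the start are shown for 5 members, chosen after the matches were seen, to show what such matches look like in complexes II to V. Capitals mark the ETS motif (CCGGAAG, or CTTCCGG on the other strand) and the NRF1 motif.
Sdha (chr1:30764433-30764552, plus strand): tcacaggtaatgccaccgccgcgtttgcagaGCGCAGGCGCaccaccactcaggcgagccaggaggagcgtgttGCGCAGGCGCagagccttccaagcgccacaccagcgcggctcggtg
Sdhb (chr5:158547814-158547933, plus strand): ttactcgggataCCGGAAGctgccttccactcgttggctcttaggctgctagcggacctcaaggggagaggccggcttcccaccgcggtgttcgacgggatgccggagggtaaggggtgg
Uqcrc2 (chr1:184599120-184599239, plus strand): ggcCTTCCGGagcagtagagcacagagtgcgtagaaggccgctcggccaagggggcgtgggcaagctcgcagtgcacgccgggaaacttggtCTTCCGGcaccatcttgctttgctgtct
Cox8a (chr1:213833624-213833743, minus strand): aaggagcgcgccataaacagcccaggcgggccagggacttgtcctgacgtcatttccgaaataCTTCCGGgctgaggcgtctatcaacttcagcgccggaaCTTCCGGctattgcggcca
Atp5po (chr11:44657484-44657603, minus strand): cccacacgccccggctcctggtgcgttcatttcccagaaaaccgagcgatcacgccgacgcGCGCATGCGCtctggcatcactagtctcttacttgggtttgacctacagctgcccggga
Atp5po held the NRF1 motif at 1 place and Sdha at 2 within the stretch, while Sdhb held the ETS motif at 1 place and Uqcrc2 and Cox8a each at 2. Among the measured members with a promoter window, the median log2 difference between treated and control rats was 0.043 for the 23 with at least 1 of the 3 motifs and 0.072 for the 19 with none.

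Values below are log2 signals relative to the 75th percentile of the array, so 0 means as bright as the 75th percentile of the probes. Differences are chlorothalonil minus corn oil on that log2 scale. The level of one probe is not compared with that of another, since probes differ in how brightly they bind. Of the 78 probes, 77 passed the filter on dim probes, and the probe that did not, one of 2 for Uqcrq, was well above background on 0 of 6 arrays. The brightest kept probe stood for each gene, and all 47 of these probes were well above background on all 6 arrays.

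On the chosen probes of the 47 measured members, RNA levels differed little between chlorothalonil-treated and control kidneys. None of the 47 measured subunits passed an adjusted p of 0.05 in limma, where 3.12% of all 29115 features did (909). Among the 2802 features with a mean log2 signal above 4, which include 45 of the 47 members, 3.96% did. Among the 11879 other features with a gene symbol 2.15% did, against 3.80% of the 17189 features without one. A count of 0 among 47 genes is near these shares and is not read as a trait of the members. The differences ran from −0.21 (Uqcrq) to 0.25 (Ndufa10), with a median of 0.058 against 0.0035 over all features. The median was 0.024 over the other features with a gene symbol. The 95% intervals of all 47 chosen probes lay inside −1 and 1, the bounds of a 2-fold difference, while a dimmer probe of Ndufc2, described with complex I, did not. For 46 of the 47 the interval lay inside −0.5 and 0.5, the exception being Uqcrq with −0.57 to 0.15. By comparison, 2738 of the 29115 features had a difference beyond 0.5 in size, and 0 of the members did, a contrast not matched for brightness. The median SD within groups was 0.054 for the members, 0.132 over all features and 0.073 over features as bright as most members (mean log2 signal above 4).

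**Figure D1:**
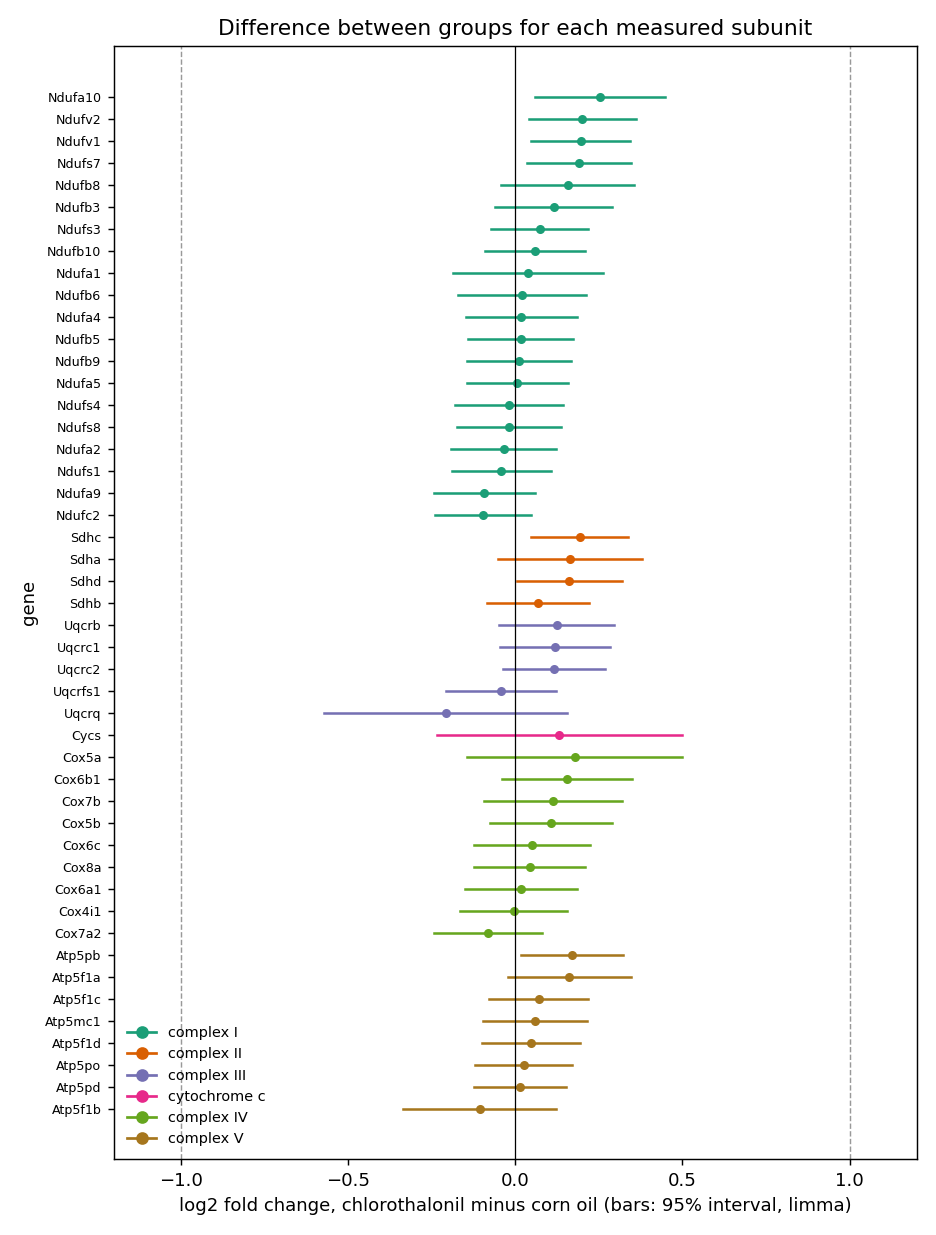
The log2 fold change of each of the 47 measured subunits (points) with its 95% interval from limma (bars), coloured by complex. Dashed lines at −1 and 1 mark a 2-fold difference. All intervals stay inside the dashed lines, and Ndufa10 at 0.25 and Uqcrq at −0.21 are the extremes.

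At an unadjusted limma p under 0.05 there were 7 members (14.9%), against 19.7% of all features. All 7 were higher with chlorothalonil, where 9.6% of all features were higher and 10.1% lower at that p: Ndufa10, Ndufs7, Ndufv1, Ndufv2, Sdhc, Sdhd and Atp5pb. Of the 11879 other features with a gene symbol, 1346 were higher and 862 lower at that p. Features without a symbol leaned the other way, with 1443 higher and 2090 lower of 17189. The shares above 0 were 55.6% with a symbol and 47.4% without. The 3 arrays of one group lay entirely above those of the other for 17 of the 47 (36.2%), 15 higher and 2 lower with chlorothalonil, against 27.7% of all features (13.6% higher and 14% lower). Among the 2802 features of that brightness, which include 45 of the 47 members, that share was 35.8% and the median difference 0.030. The direction depended on the scaling. With the 75th percentile 36 of the 47 differences were above 0, and with quantile normalization 20, where the median of the members turned to −0.037. The 2802 features of that brightness turned too, from a median of 0.030 to −0.030 and from 59.2% to 41.5% above 0. With quantile normalization 4 members were higher and 6 lower at an unadjusted limma p under 0.05 (21.3%), against 19.9% of all features. The groups did not overlap for 8 higher and 12 lower, where 28.3% of all features did not overlap with that scaling. Median scaling shifted every difference alike, and the members' median stayed 0.055 above that of all features. No direction is therefore given for the members as a group.

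The levels of the members also varied between arrays of 1 group. Of the 47 members, 27 had their lowest value on corn oil replicate 3 and 28 their highest on chlorothalonil replicate 3. Over all features 19.9% were lowest on the former and 20.7% highest on the latter. The median over the members, relative to the mean of each gene over the 6 arrays, was −0.021, −0.010 and −0.072 on corn oil replicates 1 to 3. It was −0.003, 0.011 and 0.081 on chlorothalonil replicates 1 to 3. Corn oil replicate 3 also had the fewest probes well above background, 62.1% against 66.3% to 67.8% on the other arrays, and the part of this in the members' values was not tested. Without chlorothalonil replicate 3, 28 of the 47 differences were above 0 and 3 had an unadjusted p under 0.05, all higher. Without corn oil replicate 3, 34 were above 0 and 1 had such a p. Without corn oil replicate 1 or 2 the count was 1 or 6, and without chlorothalonil replicate 1 or 2 it was 3 or 7. Over all features, 15.6% to 18.1% had such a p in these 6 fits. Each group had a slide of its own, so slide and treatment cannot be told apart in any value here.

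**Figure D2:**
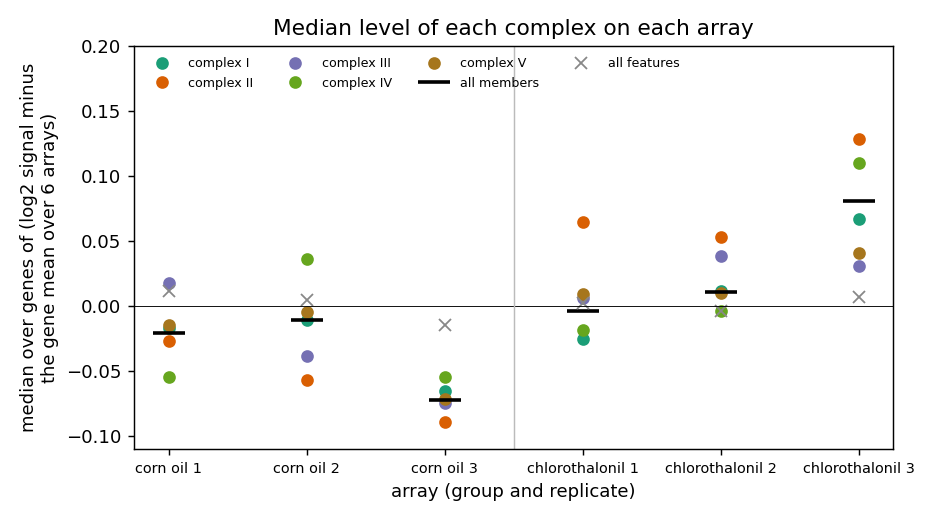
The median level of each complex on each array, as log2 signal minus the mean of each gene over the 6 arrays; the bar is the median over all 47 members and the cross that over all features. Corn oil replicate 3 (bar at −0.072) and chlorothalonil replicate 3 (bar at 0.081) lie at the ends, and the other 4 arrays lie between −0.021 and 0.011.

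Complex I was split between subunits that were slightly higher and a larger number near 0. Of its 20 measured members, 14 were above 0 and 6 below, with a median difference of 0.020. With quantile normalization 7 were above 0 and the median was −0.037. Without chlorothalonil replicate 3, 8 were above 0 and 12 below, with a median of −0.011. The flavoprotein subunits Ndufv1 and Ndufv2, which take electrons from NADH, were among the higher ones. Ndufv1 was at 6.36, 6.36 and 6.31 on corn oil replicates 1 to 3 and at 6.53, 6.49 and 6.58 on chlorothalonil replicates 1 to 3. The treated arrays all lay above the controls, with a difference of 0.20 ± 0.06 (SE) and a limma adjusted p of 0.161. Its second probe gave 0.24 ± 0.06, with the same order of the groups. Ndufv2 was at 6.33, 6.36 and 6.31 on the controls and at 6.48, 6.51 and 6.62 on the treated arrays, again without overlap, and did not pass (limma adjusted p of 0.175).

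Ndufa10, a subunit of the membrane-bound part, had the largest difference of all members. It was at 4.03, 4.16 and 3.95 on the controls and at 4.36, 4.27 and 4.28 on the treated arrays. The groups did not overlap, and the difference of 0.25 ± 0.08 (SE), or 1.19-fold, had a limma adjusted p of 0.163. Ndufs7, an iron-sulfur subunit close to the ubiquinone site, was at 6.29, 6.39 and 6.29 on the controls and at 6.47, 6.52 and 6.55 on the treated arrays. Its difference of 0.19 ± 0.06 was not shared by its other probe, which was at −0.005 ± 0.17 and spread more within both groups.

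The core iron-sulfur subunits Ndufs1 and Ndufs8 were at −0.04 and −0.02, and Ndufs3 was at 0.07. The accessory subunits Ndufa1, Ndufa2, Ndufa5, Ndufb5, Ndufb6, Ndufb9 and Ndufs4 lay between −0.03 and 0.04. Ndufa4, named for complex I but now regarded as a part of complex IV, was at 6.95, 6.95 and 6.96 with corn oil, the tightest control values of all 47, and at 6.92, 6.92 and 7.07 with chlorothalonil. Its 1 higher array is chlorothalonil replicate 3. Ndufb3, Ndufb8 and Ndufb10 were at 0.11, 0.16 and 0.06. Ndufa9 was at 4.33, 4.26 and 4.25 on the controls and at 4.18, 4.15 and 4.23 on the treated arrays, 1 of 2 members whose treated arrays all lay below the controls.

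The other was Ndufc2, a small membrane subunit of complex I, and here the 2 probes parted. The brighter probe was at 5.84, 5.85 and 5.81 on the controls and at 5.70, 5.73 and 5.78 on the treated arrays, a difference of −0.10 ± 0.06 (SE) that did not pass (limma adjusted p of 0.42). The dimmer probe was at 1.23, 1.14 and 1.35 on the controls and at 0.23, 0.023 and 0.17 on the treated arrays. Its difference of −1.10 ± 0.09 was larger than any other among the 77 kept probes of the members. In a fit over all 39862 kept probes it was the 1 member probe to pass, with a limma adjusted p of 0.0082, where 2.67% of the probes passed (1.43% lower). It passed without each single array in turn (differences of −1.14 to −1.04). Both probes carry the same RefSeq accession, and the stretches they target are not analysed here. With the mean of the probes of a gene in place of the brightest, Ndufc2 was at −0.60 with a limma adjusted p of 0.013.

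Complex II had the most even values. All 4 of its subunits were above 0 with the 75th percentile, the median and quantile normalization, and the median difference was 0.16, or 0.083 with quantile normalization. Without chlorothalonil replicate 3 all 4 were above 0, with a median of 0.13. Sdhc, which anchors the enzyme in the inner membrane, was at 5.26, 5.31 and 5.30 on the controls and at 5.47, 5.45 and 5.53 on the treated arrays. The groups did not overlap and the difference was 0.19 ± 0.06 (SE), or 1.14-fold, with the smallest limma adjusted p of the 47, 0.16. Sdhd, the other anchor, was at 6.13, 6.15 and 6.03 on the controls and at 6.23, 6.26 and 6.30 on the treated arrays, also without overlap, at 0.16 ± 0.06. The catalytic flavoprotein Sdha, at 0.16 ± 0.09 (0.034 with quantile normalization), and the iron-sulfur protein Sdhb, at 0.07 ± 0.06, overlapped between the groups.

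Complex III passes electrons from ubiquinol to cytochrome c. Its median difference was 0.12, or 0.016 with quantile normalization and 0.081 without chlorothalonil replicate 3. The core proteins Uqcrc1 and Uqcrc2 were both at 0.12, and the ubiquinone-binding subunit Uqcrb at 0.12, each with treated arrays above all controls and none past the threshold. Uqcrc2 was at 5.36, 5.39 and 5.35 on the controls and at 5.43, 5.46 and 5.55 on the treated arrays. Uqcrb was at 7.16, 7.17 and 7.03 on the controls and at 7.204, 7.22 and 7.30 on the treated arrays, while its other 3 probes were at 0.011 to 0.029. The Rieske iron-sulfur protein Uqcrfs1 was at −0.04. Uqcrq, a small subunit, was at 0.14, −0.36 and −0.11 on the controls and at −0.22, −0.25 and −0.48 on the treated arrays. Its groups overlapped, and its error of 0.15 (SE) was one of the largest among the members.

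Cytochrome c, Cycs, shuttles electrons between complexes III and IV. It was at 6.98, 7.19 and 7.21 on the controls and at 7.12, 7.09 and 7.56 on the treated arrays. Chlorothalonil replicate 3 was the highest of the 6 arrays on each of the 5 probes of the gene. The difference was 0.13 ± 0.15 (SE) with that array and −0.020 without it.

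Complex IV, cytochrome c oxidase, had 7 of 9 subunits above 0 and a median difference of 0.050, which was −0.117 with quantile normalization. Without chlorothalonil replicate 3, 6 of 9 were above 0 and the median was 0.011. With the mean of the probes of a gene, 6 of 9 were above 0 and the median was 0.016. Cox6b1, which links the monomers of the enzyme dimer, was at 5.66, 5.71 and 5.57 on the controls and at 5.73, 5.75 and 5.91 on the treated arrays, the only complex IV subunit whose groups did not overlap. Its difference was 0.15 ± 0.08 (SE). A dimmer probe gave −0.20 ± 0.08, with treated arrays below all controls, and the difference was 0.009 on a further one. Cox5b was at 7.46, 7.59 and 7.46 on the controls and at 7.55, 7.59 and 7.69 on the treated arrays, with overlap. Its difference was 0.11 ± 0.07, while its other probes were at −0.053 and −0.010. The regulatory subunit Cox4i1 was at −0.005 ± 0.07, Cox6a1 at 0.02, Cox6c at 0.05, Cox7b at 0.11, Cox8a at 0.04 and Cox7a2 at −0.08. Cox5a spread widely among the controls, at 6.61, 6.89 and 6.40, and its difference of 0.18 ± 0.13 lay within that spread.

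Complex V, ATP synthase, had 7 of 8 measured subunits above 0 and a median difference of 0.052. With quantile normalization 2 of 8 were above 0 and the median was −0.065. Without chlorothalonil replicate 3, 7 of 8 were above 0 and the median was 0.047. Atp5pb, part of the stalk that holds the enzyme together, was at 7.67, 7.67 and 7.61 on the controls and at 7.78, 7.80 and 7.88 on the treated arrays. The groups did not overlap, and the difference of 0.17 ± 0.06 (SE), or 1.13-fold, had a limma adjusted p of 0.212, but was −0.027 with quantile normalization. Atp5f1a and Atp5f1b are the large subunits of the catalytic head. Atp5f1a was at 8.84, 8.86 and 8.80 on the controls and at 9.03, 8.88 and 9.08 on the treated arrays, a difference of 0.16 ± 0.07 that turned to −0.078 with quantile normalization. Atp5f1b was at 6.33, 6.05 and 6.11 on the controls and at 6.09, 6.08 and 5.99 on the treated arrays, a difference of −0.11 ± 0.09 in which corn oil replicate 1 stood above the other 5 arrays. The intervals of both covered 0. The remaining subunits, Atp5f1c, Atp5f1d, Atp5pd, Atp5po and Atp5mc1, lay between 0.01 and 0.07.

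**Figure D3:**
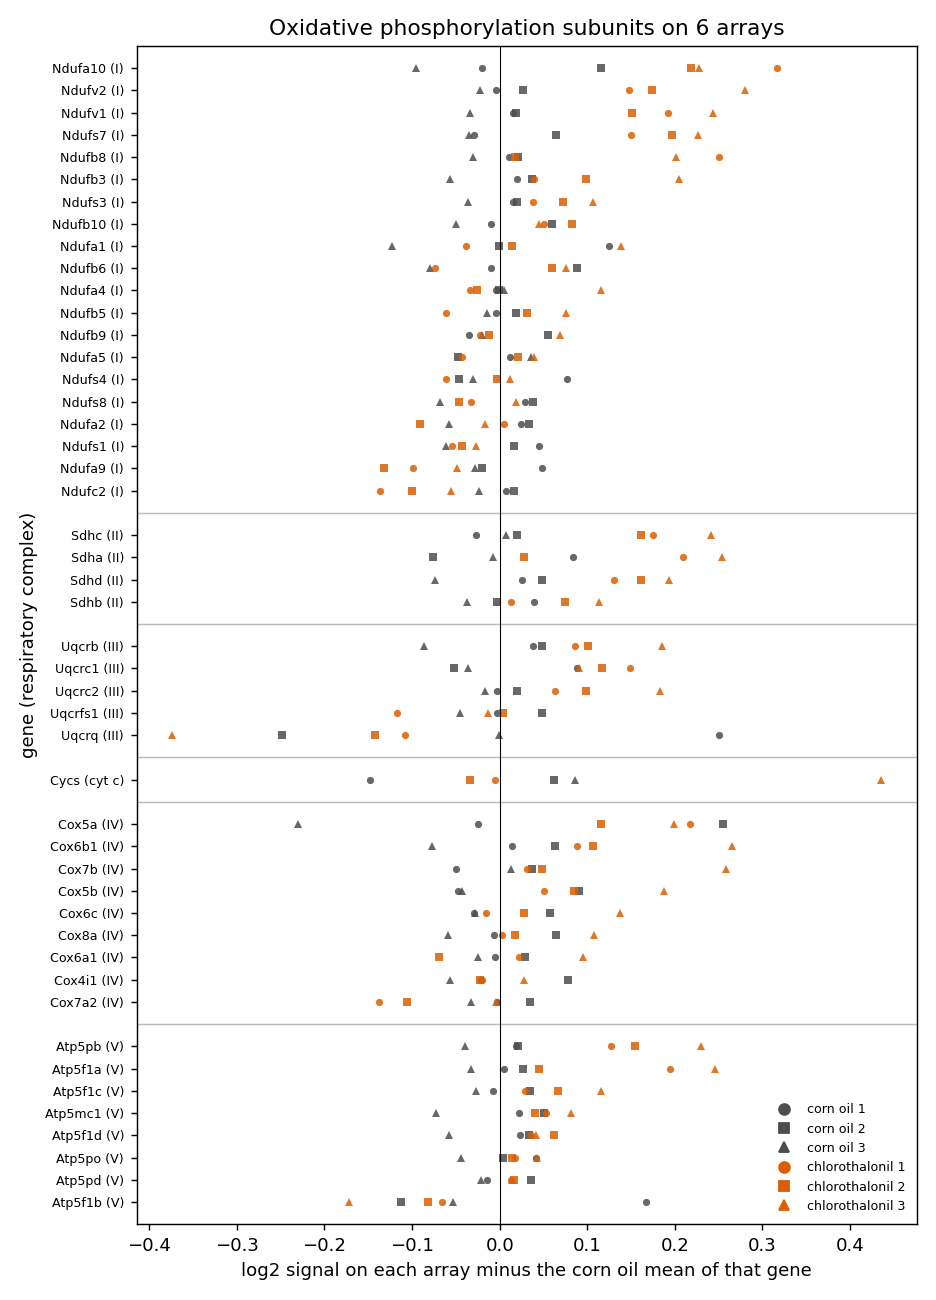
The log2 signal of the 47 measured subunits on each of the 6 arrays, minus the corn oil mean of that gene, by complex (grey, corn oil; orange, chlorothalonil; the shape gives the replicate). Most points lie close to 0 in both groups, the complex II subunits sit to the right, and chlorothalonil replicate 3 is the farthest point right for Cycs.

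Of the 47 members, 22 had more than 1 kept probe, and for 7 of these the probes differed in sign (Ndufa1, Ndufa2, Ndufs7, Ndufs8, Cycs, Cox5b and Cox6b1). Many of these genes have processed copies elsewhere in the genome, so the share of a signal that comes from the named gene is uncertain.

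The genes around the pathway were taken from lists chosen by function, and in them single subunits and isoforms moved further than any chosen probe of the members. Of 35 other nuclear subunits and tissue isoforms, 27 were measured, 2 rose and 2 fell in limma (1.3% of all features were higher and 1.82% lower at that threshold). Their median difference was 0.045, close to that of the members. Atp5if1, the inhibitor that binds complex V and blocks its reverse reaction, rose. It was at 6.12, 6.11 and 6.14 on the controls and at 6.80, 6.70 and 6.74 on the treated arrays, a difference of 0.62 ± 0.06 (SE), or 1.54-fold, with a limma adjusted p of 0.0109. Every treated array lay well above every control, by several times the spread within either group.

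Cox7c, a small subunit of complex IV, fell. It was at 3.47, 3.41 and 3.50 on the controls and at 2.83, 2.79 and 2.95 on the treated arrays, a difference of −0.61 ± 0.07 (SE) with a limma adjusted p of 0.0169. Cox4i2, the isoform that can take the place of Cox4i1, also fell on its brighter probe, from 2.58, 2.57 and 2.56 with corn oil to 2.10, 1.97 and 2.09 with chlorothalonil. That difference of −0.52 ± 0.06 had a limma adjusted p of 0.0205, but its dimmer probe was at −0.048 ± 0.08, and with the mean of both probes the call was lost (adjusted p of 0.105). Actg2, a smooth muscle actin, was at −0.59 ± 0.06 on the same arrays and passed, while the smooth muscle genes Acta2 and Myh11 were at −0.16 and 0.13 and did not. The part of this in the Cox4i2 value was not tested.

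Cox8b, the isoform of muscle and brown fat, rose on a dim probe. It was at −1.73, −1.46 and −1.72 on the controls and at −0.42, −0.97 and −0.62 on the treated arrays, a difference of 0.97 ± 0.16 (SE), or 1.96-fold, with a limma adjusted p of 0.041. Its second probe gave 0.95 ± 0.15, and the ubiquitous isoform Cox8a was at 0.04. Of 8 fat and muscle markers, 7 were measured and 5 were above 0, and 0 passed higher. The fat marker Adipoq was at 0.08 ± 0.22, and Cidea, a lipid droplet protein of brown fat, at 0.58 ± 0.20 with a limma adjusted p of 0.186. Ucp1, the uncoupling protein of brown fat, was well above background on the 3 chlorothalonil arrays and on 0 of the 3 corn oil arrays. It thus passed the filter on dim probes only through the treated group, and its direction is not read. The muscle marker Ckm, also among the 5 above 0, was well above background on 4 of the 6 arrays. The summed signal of the 7 markers, in units of the 75th percentile, was 6.9 to 8.0 with corn oil and 5.7 to 6.3 with chlorothalonil. Without Actg2, which gave most of that sum, it was 2.25 to 3.03 with corn oil and 2.63 to 3.14 with chlorothalonil. Their part in the Cox8b value was not tested.

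**Figure D4:**
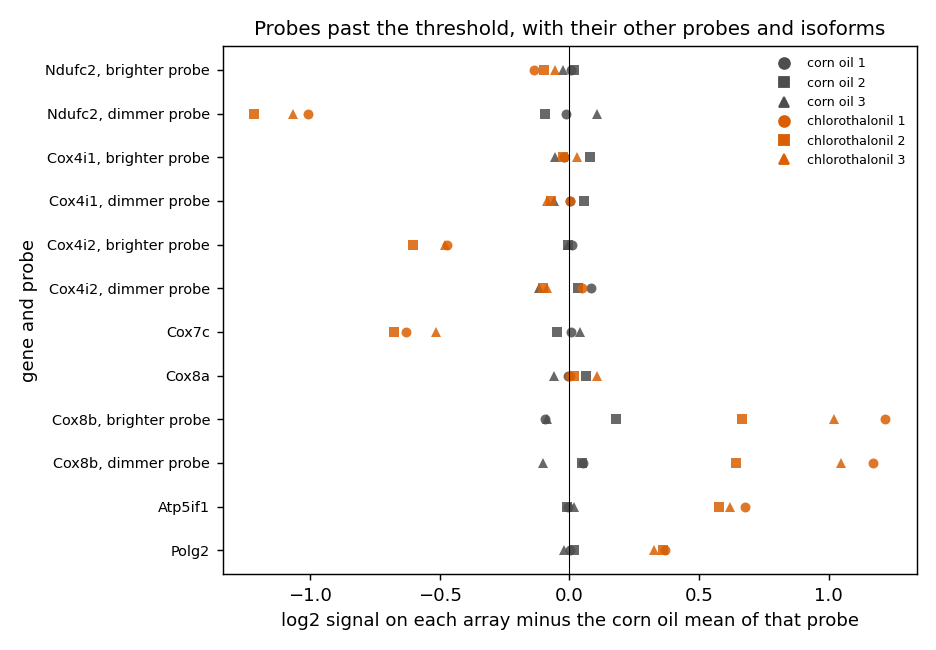
The log2 signal on each array, minus the corn oil mean of that probe, for the genes with a probe past the threshold and for the paired isoforms Cox4i1 and Cox8a (grey, corn oil; orange, chlorothalonil). Atp5if1, Cox8b and Polg2 lie to the right on every treated array, and Cox7c to the left. For Ndufc2 and Cox4i2, 1 of the 2 probes shows a much larger shift to the left than the other.

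Regulators and partners of the pathway gave 1 call. Of 18 biogenesis regulators and factors of mitochondrial DNA, Polg2, the accessory subunit of the mitochondrial DNA polymerase, rose. It was at 2.48, 2.49 and 2.46 on the controls and at 2.85, 2.84 and 2.80 on the treated arrays, a difference of 0.35 ± 0.06 (SE), or 1.28-fold, with a limma adjusted p of 0.0384. At an unadjusted limma p under 0.05 there were 3 of the 18 (16.7%), all higher: Polg2, Ppargc1b and Tfb1m. That share was 19.7% over all features, so the count is not read as a trait of the list. The coactivator Ppargc1b was at 0.31 ± 0.07 without overlap, with a limma adjusted p of 0.0849, and Tfb1m, a methyltransferase of mitochondrial ribosomal RNA, at 0.18 ± 0.06 with one of 0.199. Also short of the threshold were the coactivator Ppargc1a at 0.18 ± 0.12, Nrf1 at 0.14 ± 0.08, Gabpa at 0.01 ± 0.06, Esrra at −0.01 ± 0.09 and Tfam, which packages mitochondrial DNA, at −0.05 ± 0.07. The median of the list was 0.069. Those named besides Polg2 were picked with their values known.

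Of 43 assembly factors, which help build the complexes, 34 were measured and 0 passed in limma. At an unadjusted limma p under 0.05 there were 6 (17.6%), 5 higher and 1 lower, against 19.7% of all features. The smallest p was that of Taco1, a translation factor for a complex IV subunit. It was at −1.04, −1.03 and −0.86 on the controls and at −0.72, −0.72 and −0.52 on the treated arrays, a difference of 0.32 ± 0.09 (SE) with a limma adjusted p of 0.137. Of 25 carriers, pores, import and ubiquinone genes, 24 were measured and 0 passed in limma. At an unadjusted limma p under 0.05, 2 were higher and 0 lower (8.3%). Vdac1, the main pore of the outer membrane, was at 7.21, 7.22 and 7.17 on the controls and at 7.42, 7.36 and 7.39 on the treated arrays. Its difference was 0.19 ± 0.06 with a limma adjusted p of 0.149, and its other 3 probes were at 0.096 to 0.27. Citrate synthase, Cs, often used as a measure of mitochondrial content, was at 0.15 ± 0.09. The 2 lists had median differences of 0.058 and 0.038. Genes of the mitochondrial genome had no match in the gene table and are not analysed here.

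Each of the 5 calls in these lists kept its direction in every fit, but the threshold was often missed with 5 arrays. Without corn oil replicate 1, 2 or 3, Atp5if1 alone passed. Without chlorothalonil replicate 3, Cox7c alone passed, and without chlorothalonil replicate 1 or 2, none of the 5 did, with adjusted p of 0.053 to 0.132 in limma. With no filter on dim probes none passed, Atp5if1 having an adjusted p of 0.052 in limma.

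The tissue label was checked against cell markers. All 13 proximal tubule markers were measured and 0 passed in limma. At an unadjusted limma p under 0.05 there were 5 (38.5%), 3 higher and 2 lower, against 19.7% of all features. The summed signal of the 13 markers, in units of the 75th percentile, was 2458 to 2710 with corn oil and 2835 to 2916 with chlorothalonil. A few bright probes dominate that sum. The median of the 13 relative to each gene's own mean was highest on corn oil replicate 1, at 0.057, and was 0.017, 0.009 and 0.041 on the chlorothalonil arrays. The summed signal of the 47 members was 5025 to 5293 with corn oil and 5291 to 5700 with chlorothalonil, with overlap. Over all 29115 features the sum was also higher on every treated array, at 227077 to 237216 with corn oil and 244242 to 253847 with chlorothalonil. Neither the marker sum nor the member sum is therefore read as a trait of those genes. All 5 red blood cell transcripts were higher on every treated array, as were 13.6% of all features. Their median difference was 0.27, and none was past the threshold in limma. The largest difference, 0.73, was that of Slc4a1, which also stands in the list of collecting duct markers. In that list 10 were measured, and their median relative to each gene's own mean ran from −0.28 (corn oil replicate 2) to 0.23 (chlorothalonil replicate 1). Of the loop and distal tubule, podocyte and endothelial, and leukocyte markers, 7, 10 and 5 were measured. None in these 4 lists passed in limma. In whole tissue, more cells of a type and more RNA per cell cannot be told apart. The part of these markers in the members' values was not tested.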

How the data were processed

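Renal cortex RNA of 3 corn oil and 3 chlorothalonil rats was measured on 1 array each. Per the labels' protocols, Cy3-labelled cRNA was made from total RNA. The deposited intensity is the processed signal of Agilent Feature Extraction (10.7, per the submitters' processing notes), background-subtracted and detrended within each array, per the file headers. The value table deposited by the authors gives a ratio, the processed signal divided by 1 constant per array, found by dividing the one by the other, and served as an alternative. It is linear and not centred across arrays, with array medians of 0.1047 to 0.1116. The headers name the build rn4, so no gene coordinates are given, and promoters are of GRCr8.

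Outlier spots (0 to 9 per array) were left out. The log2 of the intensity minus the array's 75th percentile was taken over 61537 probes. Probes well above background on all 3 arrays of a group and measured on at least 2 per group were kept, 39862 in all. Accessions were named without versions through RefSeq (28206 of 61537 probes matched), with the brightest kept probe per gene, giving 29115 features. The comparison used lmFit and eBayes of limma 3.58.1 under R 4.3.3, with Benjamini-Hochberg adjustment over all features. The script was tested on simulated data. The number of arrays limits the precision.

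Members, lists and tests were chosen with earlier results of these data known. Values per array are given for the 2 smallest p per complex, the 3 highest and 3 lowest differences, members whose probes disagree in sign with a p under 0.05, and list genes past the threshold or with the smallest p. Ndufa4, Ndufa9, the probes of Ndufc2, Cox5a and marker genes were added after their values were seen. The alternatives were quantile and median scaling, the deposited ratios, normexp, 2 other filters on dim probes, the mean of probes, another variance prior, a replicate block and leaving out each array, for which the same probes were kept.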

Additional observations from a re-analysis of the deposited data

How the results depend on the processing

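The count of members past the threshold in limma was 0 in all fits but 1: with the mean of the probes of a gene it was 1, Ndufc2. At an unadjusted p under 0.05 the count of members, 7, was 4 with no filter on dim probes and 2 with the replicate block. Without single arrays it was 1 to 7. It rose to 10 with quantile normalization, 9 with median scaling or the other variance prior, and 7 higher and 2 lower with normexp. Over all features the share at such a p was 13.6% with no filter and 18.1% with the block. It was 19.9% to 22.4% in the fits that raised the count. With the other variance prior the smallest adjusted p of a member in limma was 0.063, and 0.068 with normexp. An Ndufv1 probe also passed with that prior, where 3.99% of the probes did. The count of members whose groups do not overlap, 17, was 19 to 29 without single arrays, where the share of all features rose too, from 27.7% to between 36.0% and 38.6%. The median difference of the members, 0.058, was −0.037 with quantile normalization (16 of the 47 changed sign) and 0.035 to 0.079 without single arrays. Median scaling, which gave 0.111, shifts every feature alike and says nothing about the members alone. The median of all features moved by less than 0.1 in each. The count of all features past the threshold, 909, was 172 with no filter, 0 with the replicate block (5271 at an unadjusted p under 0.05) and 127 to 402 without single arrays. Median scaling turned its balance from 378 higher and 531 lower to 435 higher and 368 lower. The count of listed pathway genes past the threshold, 5, was 0 with no filter, 0 with the replicate block, 7 with normexp and 0 to 1 without single arrays. The dimmer Ndufc2 probe had an adjusted p of 0.0762 with the replicate block. Same-numbered arrays of the 2 groups share only a number: their deviations from the group means correlated at 0.095, 0.018 and 0.051 across features. A slide block could not be fitted, and normexp used the median spot signal. Depth here is signal over background: all chosen member probes were above it on all arrays.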
